A study of Mus musculus with 14 samples.

Results

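Cholesterol and fatty acid synthesis genes are described here in mouse small cell lung cancer, a neuroendocrine carcinoma. The set holds 33 of the 23284 genes in the count files, chosen by name: 22 for the sterol pathway and 11 for fatty acid synthesis and desaturation. RNA was sequenced from 14 primary tumours of genetically engineered mice, 7 of the genotype Rb1/Trp53 (RP) and 7 of the genotype Rb1/Trp53/Crebbp (RPC). Both groups carry the Rb1 and Trp53 alterations, and RPC tumours also carry that of Crebbp, which encodes a histone acetyltransferase. The labels give no age, treatment, Cre driver or deleted exon, and they do not say that each numbered tumour came from its own mouse. P-values therefore measure the spread between these samples.

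Cells make cholesterol from acetyl-CoA through the mevalonate pathway, and fatty acids from the same precursor through malonyl-CoA. The transcription factors SREBP-2 and SREBP-1, encoded by Srebf2 and Srebf1, are held in the endoplasmic reticulum by Insig proteins when sterol is plentiful. When sterol falls they are carried to the Golgi, cut, and released to the nucleus, where they act at sterol regulatory elements together with partners such as NF-Y, which binds CCAAT boxes. In lung, alveolar type 2 cells also make large amounts of lipid, for surfactant.

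The promoters were read for those elements, since some of the genes moved together in some tumours, as described below. RefSeq windows on GRCm38.p6 were matched for 26 of the 33 genes (not Sqle, Fdft1, Fdps, Stard4, Scd1, Scd2 and Fads1), and the 250 bases before each start were searched on both strands, with overlapping matches kept. A CCAAT box (CCAAT, or ATTGG on the other strand) was found in 17 of 18 sterol genes and 4 of 8 fatty acid genes, against 40% of the 11628 tested genes that had a promoter. Acat2 was the sterol gene with no match. A GC box (GGGCGG) was found in 16 of 18 and 5 of 8, against 62.6%, and an E-box (CACGTG) in 4 of 18 and 0 of 8, against 9.65%. The sterol regulatory element TCACNCCAC was found in 1 of the 26, Hmgcs1, against 1.23%. Hmgcs1 had no counts in any library and was not tested, so no tested gene with a matched window had this exact pattern. Variants of the pattern were not searched for, so its absence does not show that a promoter lacks a sterol regulatory element. The 18 sterol genes include Hmgcs1. All of these elements are matches of letters, and binding was not measured. A CCAAT box was found in Insig1, Mvk, Pmvk, Sc5d, Ebp, Tm7sf2, Hsd17b7 and Ggps1 of the sterol genes. It was also found in Srebf1, Acss2 and Me1 of the fatty acid genes. None of these genes separated RPC 3, 5 and 6 from the other 11. Fads2, which did separate them, had no CCAAT box. Windows of up to 25 bases on each side show the element in Hmgcs1 and the CCAAT box of 4 sterol genes and of Fasn, each printed 5′ to 3′ on its gene's strand with the match in capitals. They lie outside annotated exons, before the starts of their genes. Other windows outside exons, among them those of Ebp, Mvk, Pmvk, Sc5d, Ggps1, Hsd17b7, Nsdhl, Srebf1 and Me1, are not printed.
Hmgcs1, chr13:119690189-119690247, plus strand: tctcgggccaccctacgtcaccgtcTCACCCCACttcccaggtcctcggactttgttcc
Lss, chr10:76531518-76531572, plus strand: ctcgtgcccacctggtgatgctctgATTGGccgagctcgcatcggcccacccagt
Insig1, chr5:28071171-28071225, plus strand: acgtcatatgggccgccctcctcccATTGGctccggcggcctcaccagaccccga
Srebf2, chr15:82147109-82147163, plus strand: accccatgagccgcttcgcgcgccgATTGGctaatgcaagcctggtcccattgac
Mvd, chr8:122443453-122443507, minus strand: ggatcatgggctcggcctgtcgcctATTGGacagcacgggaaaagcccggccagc
Fasn, chr11:120824608-120824662, minus strand: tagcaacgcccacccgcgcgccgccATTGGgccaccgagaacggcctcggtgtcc

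Counts in genes ran from 10060969 to 24052799 per library. Levels are given in CPM, read counts brought to a common library size after TMM scaling. Of the 33 genes, 32 had enough counts to test. Hmgcs1, the synthase that starts the mevalonate pathway, was listed at 0 in all 14 files, so no level is given for it. Crebbp was at 76.7 ± 13.9 (RP) and 64.8 ± 4.25 CPM (RPC), Rb1 at 154 ± 53.4 and 129 ± 27.2, and Trp53 at 26.5 ± 4.96 and 21.6 ± 8.07 (SD, n = 7 each). Counts cover whole genes, deleted part or not, so these values do not check the labels. All 14 libraries expressed the neuroendocrine markers. The summed level of 8 genes was 5154 to 10040 CPM in RP and 2446 to 4841 CPM in RPC tumours, so every RPC sum was lower. RPC 3, 5 and 6 stood apart by their markers of other cells. The sum of 7 macrophage markers was 3.40 to 6.62 CPM there and 362 to 1924 CPM in the other 11, and all 7 were below the other 11 libraries. The sum of 6 fibroblast markers was 3.46, 126 and 5.54 CPM in RPC 3, 5 and 6 and 213 to 820 CPM in the others. Pdgfra gave 117 of the 126 CPM in RPC 5, and Col3a1, the highest fibroblast marker elsewhere, was at or below 0.629 CPM in the 3. Endothelial markers summed to 7.33, 85.2 and 1.97 CPM in the 3 (Kdr gave 82.9 CPM in RPC 5, and Cdh5 and Cldn5 were at 0) and to 40.2 to 259 CPM elsewhere. T and NK cell markers summed to at most 0.447 CPM against at least 1.66 CPM, and club cell markers to 1.14 to 21.1 CPM against 21.2 to 2412 CPM. Hepatocyte markers, led by Ttr, were within the range of the others, 0.830 to 142 CPM, with Alb at or below 0.0883 CPM throughout. In bulk RNA, fewer cells of a type and less RNA per cell cannot be told apart. Results are given with and without these 3 libraries, and whether the markers have a part in them was not tested.

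RPC 3, 5 and 6 had the highest sterol synthesis levels of the series. The 21 tested sterol genes summed to 2173, 3010 and 2361 CPM in RPC 3, 5 and 6, against 862 to 1268 CPM in the other 11 tumours. For 11 of the 21 sterol genes, and 4 of the 11 fatty acid genes, all 3 libraries lay above all of the other 11. Among all 14804 tested genes this held for 397, or 2.68%. No gene of the set lay below the other 11 in all 3 libraries, which held for 9.19% of tested genes. The 11 sterol genes were Idi1, Fdft1, Fdps, Lss, Cyp51, Dhcr7, Srebf2, Mvd, Nsdhl, Sc4mol and Stard4, and the fatty acid genes were Fasn, Scd2, Fads1 and Fads2. The 3 tumours were set apart by measured values, so this is a description with no test.

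**Figure D1:**
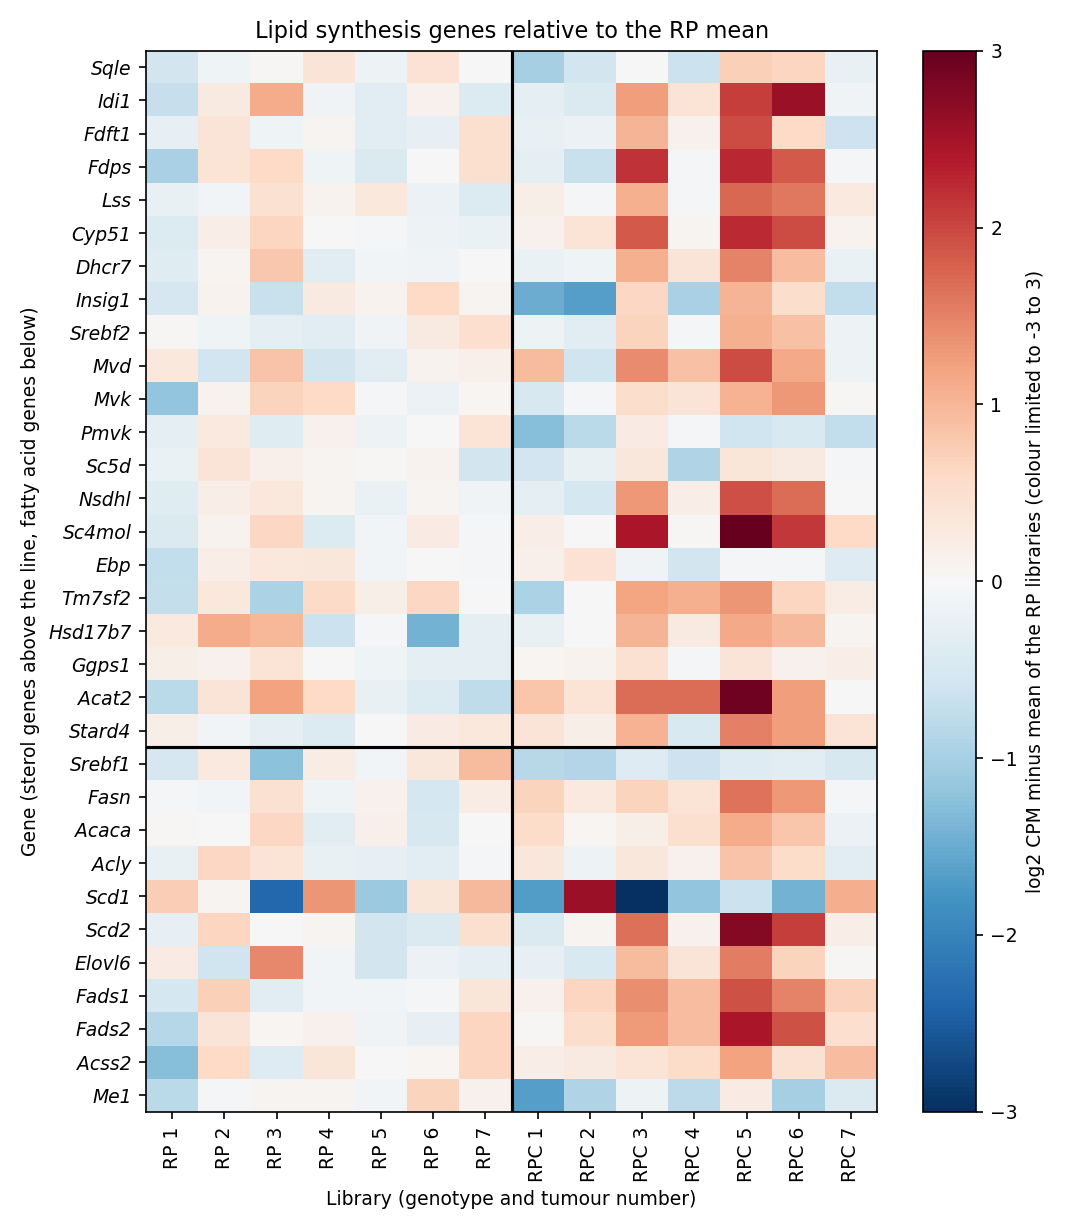
Level of the 32 tested genes (rows) in the 14 libraries (columns), as log2 CPM minus the mean of the 7 RP libraries, with the colour limited as the scale shows. The sterol rows above the line are red in RPC 3, 5 and 6 except for Ebp in all 3, Pmvk in RPC 5 and 6 and Sqle in RPC 3, and Scd1 runs from deep blue in RPC 3 to deep red in RPC 2.

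Counts against the highest RP value set the 3 tumours apart from the other 4 RPC tumours. In RPC 3, 5 and 6, 15, 17 and 15 of the 21 sterol genes were above every RP tumour, where 19.2%, 19.9% and 18% of all tested genes were. In RPC 1, 2, 4 and 7 the numbers were 2, 1, 3 and 1 of 21, where 14%, 11%, 15.2% and 8.71% of all tested genes were. Fatty acid genes above every RP tumour numbered 4, 8 and 5 of 11 in RPC 3, 5 and 6, and 1, 1, 2 and 1 in RPC 1, 2, 4 and 7. Sterol genes below every RP tumour numbered 4, 5, 0, 4, 1, 1 and 3 of 21 in RPC 1 to 7, where 13.7%, 12.1%, 25%, 16.2%, 26.6%, 25.2% and 8.75% of all tested genes were. In RPC 3, 5 and 6 more genes overall lay below the RP range than above it, and the sterol genes did the opposite.

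The tumours were then compared by genotype. RPC against RP, 0 of the 21 sterol genes and 1 of the 11 fatty acid genes passed the threshold (edgeR, adjusted p under 0.05 over all genes by Benjamini-Hochberg). Fads1 was the gene that rose. DESeq2 called 3 sterol genes (Acat2, Cyp51 and Sc4mol) and 4 fatty acid genes (Fads1, Fads2, Fasn and Scd2), all higher, and limma-voom called Fads1 alone. DESeq2 also called 1424 genes in all. With edgeR 327 of all tested genes passed, 2.21%, of which 1.09% were higher and 1.12% lower in RPC. At an unadjusted p under 0.05, 9 sterol genes were higher and 1 lower, and 5 fatty acid genes were higher and 2 lower, against 10.3% higher and 11.1% lower over all genes. The median log2 fold change was 0.57 for sterol genes and 0.46 for fatty acid genes, beside 0.0022 for all tested genes. Positive values were found for 16 of 21 sterol and 9 of 11 fatty acid genes, and for 50.2% of all genes. Genes of a pathway vary together, so these counts are not independent observations.

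Without RPC 3, 5 and 6, the tumours with the highest sterol levels, the shift of the sterol genes was no longer seen. Leaving out the highest values of a group lowers its difference in any case, so this is a description and not a test. The median log2 fold change was -0.092 for the 21 sterol genes and 0.23 for the 11 fatty acid genes, beside -0.0047 for all genes. Positive values were found for 8 of 21 and 6 of 11, against 49.0% of all genes. No gene of the set was called there, where 11 of 15358 tested genes were (0.0716%). At an unadjusted p under 0.05, 0 sterol genes were higher and 3 lower, and 1 fatty acid gene was higher and 2 lower, against 4.83% and 7.05% of all genes. A term for the mean level of non-tumour markers was also added to the model over all 14 libraries. There edgeR called 0 genes of the set and 7 of all 14804 tested genes. With this term 2 sterol and 3 fatty acid genes had an unadjusted p under 0.05, beside 1523 of all tested genes.

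**Figure D2:**
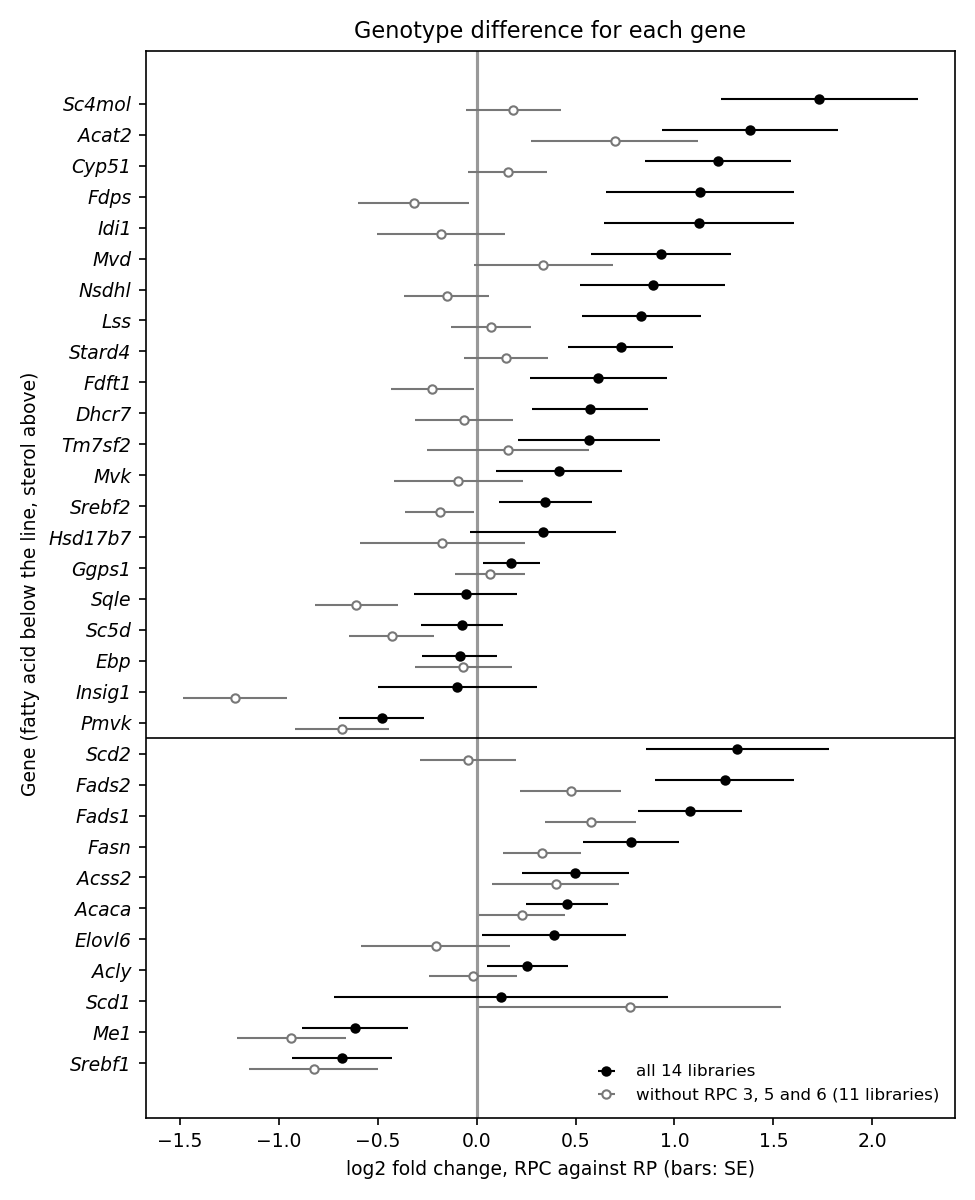
Log2 fold change of RPC against RP for each of the 32 tested genes (points, bars 1 SE), over all 14 libraries (filled) and without RPC 3, 5 and 6 (open). Sc4mol moves from 1.73 to 0.19 and Scd2 from 1.32 to -0.04, while Srebf1 and Me1 lie below 0 in both.

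Among the regulators, Srebf2 and Insig1 were high in the 3 tumours, and Insig1 was also low in the other 4 RPC tumours. Srebf2, which encodes SREBP-2, the activator of sterol genes, was at 143, 164 and 251 CPM in RP tumours (lowest, median, highest). In RPC 3, 5 and 6 it was at 279, 367 and 325 CPM, above all of the other 11, and in RPC 1, 2, 4 and 7 at 160, 140, 172 and 160 CPM, within the RP range or just below it. Its log2 fold change between genotypes was 0.35 (SE 0.23, adjusted p = 0.409). Insig1, which encodes the sterol sensor that retains SREBPs and is itself a target of SREBPs, split the RPC tumours in opposite directions. RP tumours had 88.4, 150 and 214 CPM (lowest, median, highest). RPC 3, 5 and 6 had 215, 286 and 204 CPM, near or above the top of that range. RPC 1, 2, 4 and 7 had 49.6, 44.8, 70.9 and 84.3 CPM, each below the lowest RP tumour. Insig1 was the 1 sterol gene of 21, and there were 0 fatty acid genes, with all 4 below the RP range, which held for 1.19% of all tested genes. The genotype difference was -0.10 over 14 libraries (SE 0.40, adjusted p = 0.907) and -1.22 without RPC 3, 5 and 6 (SE 0.26, adjusted p = 0.108), past the threshold in neither fit.

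Srebf1, which encodes SREBP-1, the activator tied more closely to fatty acid genes, did not exceed the RP range in the 3 tumours, unlike Srebf2. It was at 105, 286 and 473 CPM in RP tumours (lowest, median, highest) and at 133, 177 and 194 CPM in RPC tumours. RPC 3, 5 and 6, at 187, 187 and 194 CPM, were the tumours with high Fasn and Scd2 and yet lay below the RP median of Srebf1. Within the RPC genotype they were the highest for Srebf1, with RPC 1, 2, 4 and 7 at 138, 133, 159 and 177 CPM. The log2 fold change was -0.68 (SE 0.25, adjusted p = 0.143), and -0.82 without those 3. It passed without RP tumour 3, whose 105 CPM was the lowest value (adjusted p = 0.0341). That fit called 898 of all tested genes. Stard4, which encodes a carrier that moves sterol between membranes, was at 65.4, 90.5 and 76.2 CPM in RPC 3, 5 and 6 and between 23.1 and 42.4 CPM in all others. Its genotype difference was 0.73 (adjusted p = 0.137).

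In the mevalonate branch the later enzymes separated the 3 tumours and the kinases did so less. Fdps, which makes farnesyl diphosphate, was at 346, 369 and 274 CPM in RPC 3, 5 and 6 and at 39.5 to 117 CPM in the other 11. Idi1, the isomerase that supplies its substrate, was at 126, 224 and 320 CPM in those 3. RP tumour 3, at 115 CPM, came close to RPC 3, and the other 10 ran from 32.7 to 70.6 CPM. Mvd, the decarboxylase before it, was at 59.1, 86.7 and 48.8 CPM in RPC 3, 5 and 6 and at 14.7 to 42.8 CPM elsewhere. Log2 fold changes by genotype were 1.13 for Fdps (SE 0.48, adjusted p = 0.192), 1.12 for Idi1 (SE 0.48, 0.198) and 0.93 for Mvd (SE 0.36, 0.154). Without the 3 libraries they were -0.32, -0.18 and 0.34.

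The kinases Mvk and Pmvk, which phosphorylate mevalonate in sequence, differed from each other. Mvk was at 23.3, 33.3 and 39.5 CPM in RPC 3, 5 and 6, and RP tumours 3 and 4 reached 25.6 and 24.2 CPM, so RPC 3 lay inside the RP range. Pmvk was at 79.4, 44.8 and 49.3 CPM in the 3 and at 52.0 to 89.9 CPM in RP tumours. RPC 1, 2 and 7, at 27.6, 38.5 and 40.1 CPM, were lower still, so that 5 of the 7 RPC tumours lay below every RP tumour for Pmvk. The log2 fold change of Pmvk was -0.48 (SE 0.21, adjusted p = 0.216) and that of Mvk 0.42 (adjusted p = 0.467). Acat2, the cytosolic thiolase that joins acetyl-CoA units ahead of Hmgcs1, was at 70.2, 167 and 52.6 CPM in RPC 3, 5 and 6. RPC 4 also had 70.5 CPM, more than RPC 3, and the RP range was 12.4 to 50.6 CPM. Its difference of 1.38 (SE 0.45) had an adjusted p of 0.104, and of 0.0457 without RP tumour 3, the highest of the RP tumours. The fit without RP tumour 3 called 898 of all tested genes. Ggps1, which diverts farnesyl diphosphate to geranylgeranyl diphosphate for protein prenylation, varied little: it was at 25.1 to 42.5 CPM over all 14 libraries, with a genotype difference of 0.18 (adjusted p = 0.503).

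The squalene enzymes showed the same contrast within a pair of neighbouring steps. Fdft1, squalene synthase, was at 125, 240 and 93.5 CPM in RPC 3, 5 and 6 and at 40.1 to 86.1 CPM in the other 11. Sqle, the epoxidase that follows and a rate-limiting step, was at 146, 243 and 231 CPM in the 3. RP tumours had 99.9 to 198 CPM of Sqle, so RPC 3 lay at their median of 146 CPM and RPC 1 and 4, at 73.4 and 94.1 CPM, below all of them. Genotype differences were 0.62 for Fdft1 (SE 0.35, adjusted p = 0.323) and -0.06 for Sqle (SE 0.26, adjusted p = 0.920). Lss, which closes squalene epoxide into lanosterol, was at 60.9, 96.7 and 87.9 CPM in the 3 and at 21.9 to 39.7 CPM in the others (log2 fold change 0.83, adjusted p = 0.138).

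Of the enzymes from lanosterol to cholesterol, Sc4mol, Cyp51 and Nsdhl had the largest differences between genotypes, none past the threshold. Sc4mol, the C4 methyl oxidase now named Msmo1, had the largest log2 fold change of the set, 1.73 (SE 0.50, adjusted p = 0.0755). It was at 14.8, 19.4 and 30.9 CPM in RP tumours (lowest, median, highest) and at 110, 190 and 87.5 CPM in RPC 3, 5 and 6. RPC 1, 2, 4 and 7, at 23.0, 19.9, 20.7 and 30.4 CPM, were inside the RP range, and the difference without the 3 was 0.19. Cyp51, the C14 demethylase, was at 154, 204 and 167 CPM in the 3 and at 32.6 to 67.1 CPM in the others. Its difference was 1.22 (SE 0.37, adjusted p = 0.0872). Both Sc4mol and Cyp51 passed when RPC 7 was left out (adjusted p = 0.0494 and 0.0475). That fit called 763 of all tested genes, against 327 over all 14 libraries. Nsdhl, the C4 decarboxylase, was at 52.6, 80.7 and 67.5 CPM against 14.6 to 26.2 CPM (0.89, adjusted p = 0.182).

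The remaining sterol enzymes followed less or not at all. Dhcr7, the last reductase, was at 59.7, 79.6 and 53.8 CPM in RPC 3, 5 and 6, and RP tumour 3 was next at 49.9 CPM (genotype difference 0.57, adjusted p = 0.276). Tm7sf2, a C14 reductase, was at 24.2, 26.5 and 16.6 CPM in the 3, with RPC 4 at 22.3 CPM and RP tumours from 5.39 to 16.3 CPM (0.57, adjusted p = 0.379). Hsd17b7, the keto reductase of C4 demethylation, was at 43.5, 47.1 and 42.4 CPM, inside or just above an RP range of 7.98 to 46.5 CPM (0.34, adjusted p = 0.618). Sc5d, the desaturase, was at 57.9, 58.3 and 55.0 CPM, below the highest RP tumour at 59.2 CPM (-0.07, adjusted p = 0.862). Ebp, the sterol isomerase, was at 34.8, 35.4 and 35.8 CPM, within the RP range of 22.4 to 47.1 CPM (-0.09, adjusted p = 0.813). Steps of a single pathway thus differed in how far they varied: the highest tumour was 12.8 times the lowest for Sc4mol and 2.24 times for Ebp.

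Fatty acid synthesis proper was higher in RPC 5 and 6 and less so in RPC 3. Fasn, the synthase that builds palmitate, was at 214, 301 and 423 CPM in RP tumours (lowest, median, highest) and at 493, 957 and 760 CPM in RPC 3, 5 and 6. RPC 1, at 492 CPM, came close to RPC 3. The log2 fold change of Fasn was 0.78 (SE 0.24, adjusted p = 0.0944), 0.33 without the 3, and it passed without RPC 7 (adjusted p = 0.0436). The fit without RPC 7 called 763 of all tested genes. Acaca, the carboxylase that makes malonyl-CoA, was at 107, 203 and 167 CPM in the 3 and at 67.6 to 145 CPM in RP tumours (0.46, adjusted p = 0.225). Acly, which makes cytosolic acetyl-CoA from citrate, was at 401, 569 and 462 CPM. RP tumours 2 and 3 had 481 and 420 CPM of it (0.26, adjusted p = 0.490). Acss2, which makes acetyl-CoA from acetate, was at 28.4, 48.8 and 29.3 CPM and within the RP range of 8.68 to 33.4 CPM in RPC 3 and 6 (0.50, adjusted p = 0.303).

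Me1 and Elovl6 did not follow Fasn closely. Me1, the malic enzyme that supplies NADPH, was at 90.01, 119 and 50.05 CPM in RPC 3, 5 and 6, and RP tumours ran from 56.9 to 160 CPM. The genotype difference was -0.62 (SE 0.27, adjusted p = 0.204), and -0.94 without the 3 (SE 0.28, adjusted p = 0.199). Elovl6, which lengthens palmitate, was at 103, 155 and 83.7 CPM in the 3. RP tumour 3 had 144 CPM of it and the other RP tumours 35.1 to 62.8 CPM (0.39, adjusted p = 0.556).

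The stearoyl-CoA desaturases Scd1 and Scd2, which put the first double bond into saturated fatty acids, moved apart. Scd2 was at 183, 264 and 419 CPM in RP tumours (lowest, median, highest) and at 838, 1806 and 1132 CPM in RPC 3, 5 and 6. RPC 1, 2, 4 and 7 had 196, 284, 291 and 307 CPM, inside the RP range. The genotype difference was 1.32 (SE 0.46, adjusted p = 0.127) and -0.04 without the 3. Scd1 had the widest range of the set, 238-fold between the highest and the lowest tumour. It was at 269, 169, 31.1, 405, 73.6, 208 and 314 CPM in RP 1 to 7 and at 49.9, 974, 4.09, 70.3, 103, 59.5 and 340 CPM in RPC 1 to 7. Per kilobase of transcript, Scd2 was 181.6 times Scd1 in RPC 3 and 0.258 times Scd1 in RPC 2. RPC 3 and 2 were therefore the extremes of both the ratio and of Scd1. The difference between genotypes was 0.12 (SE 0.84, adjusted p = 0.948).

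Markers of alveolar type 2 cells varied beside Scd1. Their summed level over 6 genes, led by Sftpc, was 3093 CPM in RPC 2, which had the most Scd1. It was 1715, 1599, 1127 and 798 CPM in RPC 7, RP 7, RP 1 and RP 4, the 4 tumours next in Scd1. It was 10.9 CPM in RPC 3, with the least Scd1, and 66.0 CPM in RP 3, with the second least. In RPC 4, 5 and 6 the sum was 10.5, 19.6 and 9.12 CPM with Scd1 at 70.3, 103 and 59.5 CPM. Their part in the level of Scd1 was not tested. Adipocyte markers reached a sum of 197 CPM in RPC 4 and at most 35.9 CPM in the others. In RPC 4, 2 of the 11 fatty acid genes were above the RP range, where 15.2% of all tested genes were.

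**Figure D3:**
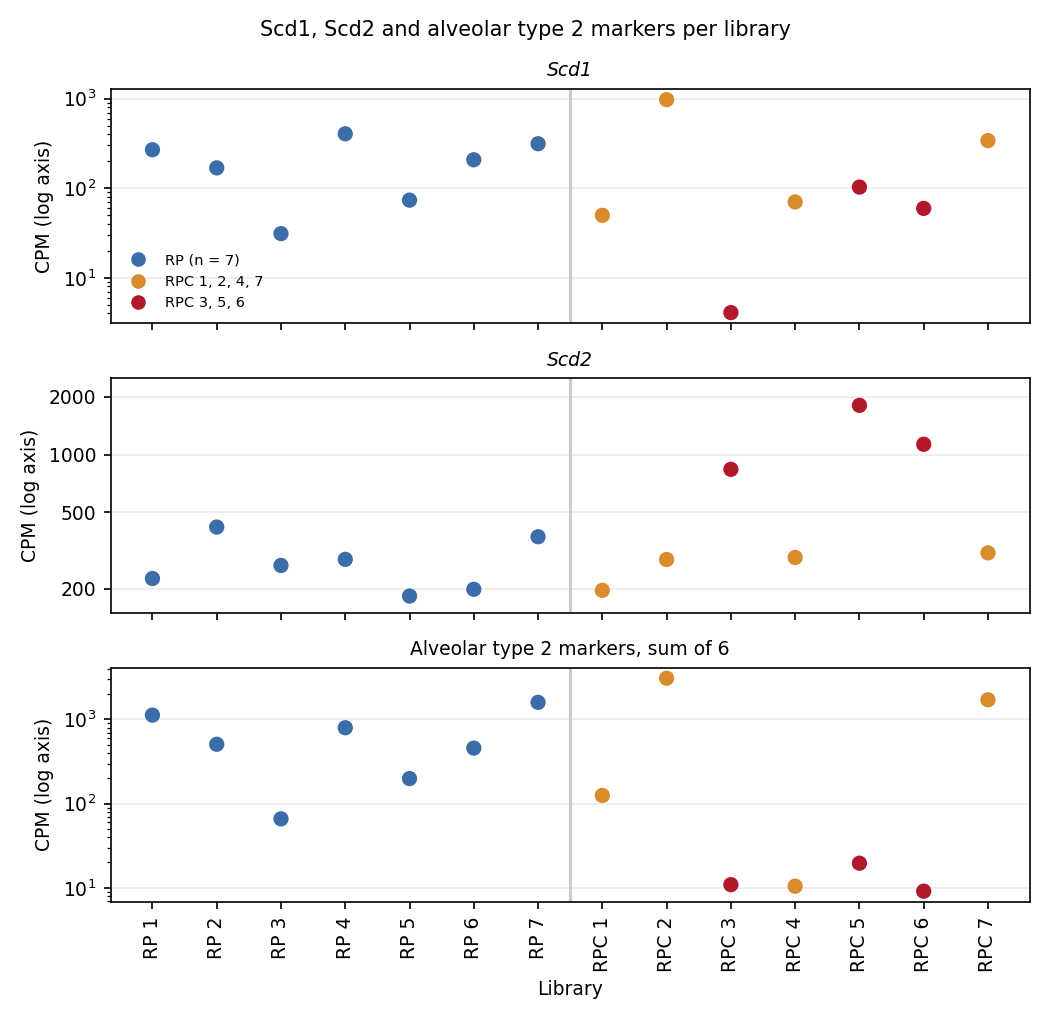
CPM of Scd1, Scd2 and the sum of 6 alveolar type 2 cell markers in each library (log axes), coloured by genotype with RPC 3, 5 and 6 in red. Scd1 and the markers peak in RPC 2 at 974 and 3093 CPM, while Scd2 is highest in RPC 3, 5 and 6.

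Fads1 and Fads2, the delta-5 and delta-6 desaturases of polyunsaturated fatty acid synthesis, had positive genotype differences with and without the 3 tumours, and Fads1 was called over all 14. Fads1 was at 78.6, 107 and 185 CPM in RP tumours (lowest, median, highest) and at 124, 216 and 423 CPM in RPC tumours. The highest RP tumour, RP 2 at 185 CPM, lay above RPC 1, 2 and 7 at 124, 177 and 182 CPM, so the groups overlapped. Means were 117 ± 36.4 and 248 ± 103 CPM (SD, n = 7 each), a difference of 1.08 in log2 (SE 0.26) at an adjusted p of 0.0478. This call is close to the threshold: it was lost in 11 of the 14 fits that left out a library, with adjusted p from 0.0263 to 0.101 over the 14. It held without RP 3, RPC 1 or RPC 7 and was lost without each of the other 11. Without RPC 3, 5 and 6 the difference was 0.58 (adjusted p = 0.345). Fads2 was at 42.6 ± 13.2 and 102 ± 64.7 CPM (SD, n = 7 each), a difference of 1.25 (SE 0.35, adjusted p = 0.0693) and of 0.47 without the 3. It passed without RPC 1 or RPC 7 (adjusted p = 0.0491 and 0.0441). The fit without RPC 7 called 763 of all tested genes.

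The desaturase genes share a chromosome. Scd1, Scd2, Fads1, Fads2 and the sterol gene Tm7sf2 lie on chromosome 19, where 85 of 501 tested genes were higher in RPC tumours (17.0%), with a median log2 fold change of 0.46. The 4 fatty acid genes there had a median of 1.17 and the 7 on other chromosomes of 0.39. Without RPC 3, 5 and 6 the medians were 0.39 for chromosome 19, 0.53 for its 4 fatty acid genes and -0.019 for the other 7. Whether the change along the chromosome has a part in the call of Fads1 was not tested.

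Sterol and fatty acid genes were compared within each tumour by scores. Each score is the mean over its genes of log2 CPM minus the gene's mean over the 14 libraries. In the 3 tumours the sterol score was 0.79, 1.20 and 0.82 (RPC 3, 5 and 6), against -0.58 to 0.09 in the other 11. The fatty acid score was -0.05, 1.002 and 0.44, against -0.46 to 0.22 in the others. RPC 3 thus had a high sterol score with a fatty acid score, Scd1 included, inside the range of the rest. With Scd1 left out, a choice made after its values were seen, the fatty acid score of RPC 3 was 0.43. Those of RPC 5 and 6 were then 1.12 and 0.58, and the highest of the other 11 was 0.10, in RP 7. The 7 fatty acid genes of other chromosomes leave out both Scd genes and both Fads genes. Over these 7 the score was 0.21, 0.80 and 0.27 in RPC 3, 5 and 6, and at most 0.15 in the other tumours.

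The sterol score exceeded the fatty acid score by 0.84, 0.20 and 0.38 in RPC 3, 5 and 6. RP 3 had a difference of 0.36, about that of RPC 6, with scores of 0.09 and -0.26. RPC 2, RP 7 and RPC 7 had differences of -0.48, -0.47 and -0.32, the most tilted to fatty acid genes. Scd1 is part of the fatty acid score, and without it these differences were -0.18, -0.35 and -0.17, and that of RPC 3 was 0.37. By genotype, the sterol score averaged -0.22 ± 0.21 in RP and 0.22 ± 0.69 in RPC tumours, the fatty acid score -0.15 ± 0.25 and 0.15 ± 0.45, and their difference -0.069 ± 0.25 and 0.069 ± 0.45 (SD, n = 7 each). The SD of the sterol score in RPC tumours was larger than the difference between genotypes, and each difference of means was smaller than the larger of its 2 SDs. RPC 3, 5 and 6 had the highest sterol scores, so leaving them out had to lower the genotype difference of that score. It went from 0.43 to -0.11, and that of the sterol minus fatty acid score from 0.14 to -0.16.

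**Figure D4:**
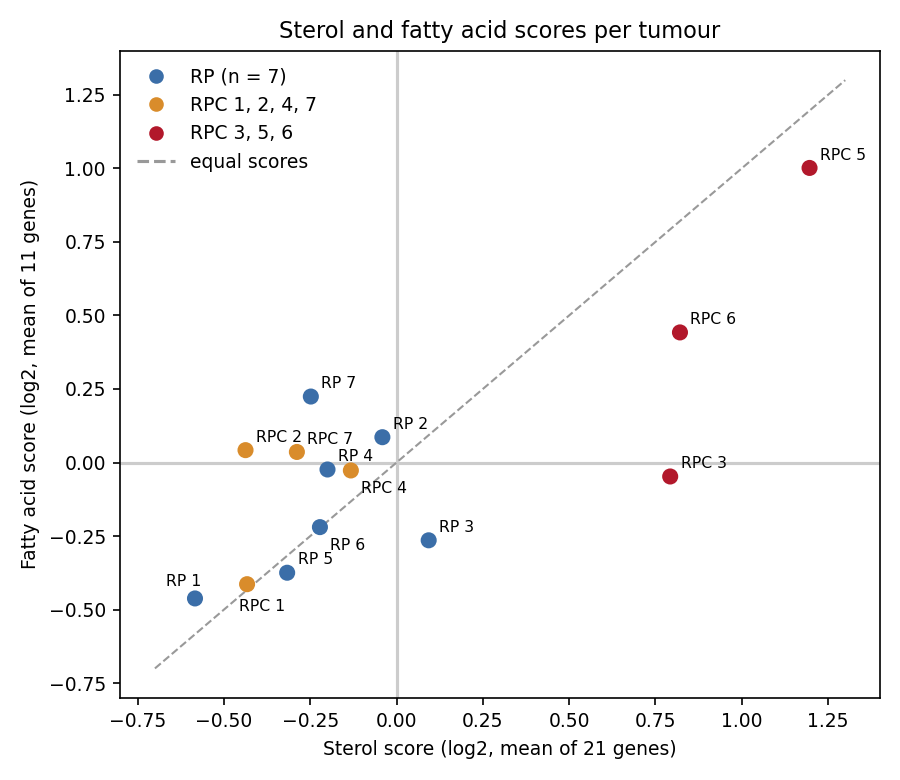
Sterol score against fatty acid score for each of the 14 tumours, both in log2 units, with a dashed line of equal scores. RPC 3, 5 and 6 lie to the right at sterol scores of 0.79 to 1.20, and RPC 3 lies among the others on the fatty acid axis at -0.05. The fatty acid score shown includes Scd1.

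Other lipid genes were read from a list of 47, all tested, that covers SREBP processing and lipid regulators, sterol handling, isoprenoid use, and fatty acid supply and oxidation. In RPC tumours 1 of the 47 rose and 1 fell, where 1.09% of all tested genes rose and 1.12% fell. The median log2 fold change of the 47 was -0.020. At an unadjusted p under 0.05, 6 were higher and 6 lower, close to the share of all genes. Acacb, the acetyl-CoA carboxylase of the outer mitochondrial membrane, whose malonyl-CoA restrains fatty acid oxidation, fell. It was at 16.8, 38.9 and 110 CPM in RP tumours (lowest, median, highest) and at 7.06, 8.74 and 21.02 CPM in RPC tumours. RPC 7 at 21.02 CPM was the RPC tumour above the lowest RP tumour, RP 3 at 16.8 CPM. The log2 fold change was -2.20 (SE 0.42, adjusted p = 0.0241), and -2.07 without RPC 3, 5 and 6 (SE 0.51, adjusted p = 0.161). The call was lost without RP 6 (adjusted p = 0.0512) or RPC 3 (0.0513), and RPC 1, 2 and 4, at 8.21, 8.74 and 14.3 CPM, were as low as the 3. Its paralog Acaca had the opposite sign, at 0.46.

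Osbp, which encodes an oxysterol-binding protein of membrane contact sites and lies on chromosome 19, rose. It was at 61.6, 79.6 and 97.8 CPM in RP tumours (lowest, median, highest) and at 96.9, 114 and 126 CPM in RPC tumours, with RPC 1 at 96.9 CPM inside the RP range. The log2 fold change was 0.54 (SE 0.12, adjusted p = 0.0358), and 0.46 without RPC 3, 5 and 6 (SE 0.15, adjusted p = 0.242). Over the 14 fits that left out a library adjusted p ran from 0.0294 to 0.0884, and the call was lost without RP 2, 5, 6 or 7 or RPC 2, 3, 4, 5 or 6.

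**Figure D5:**
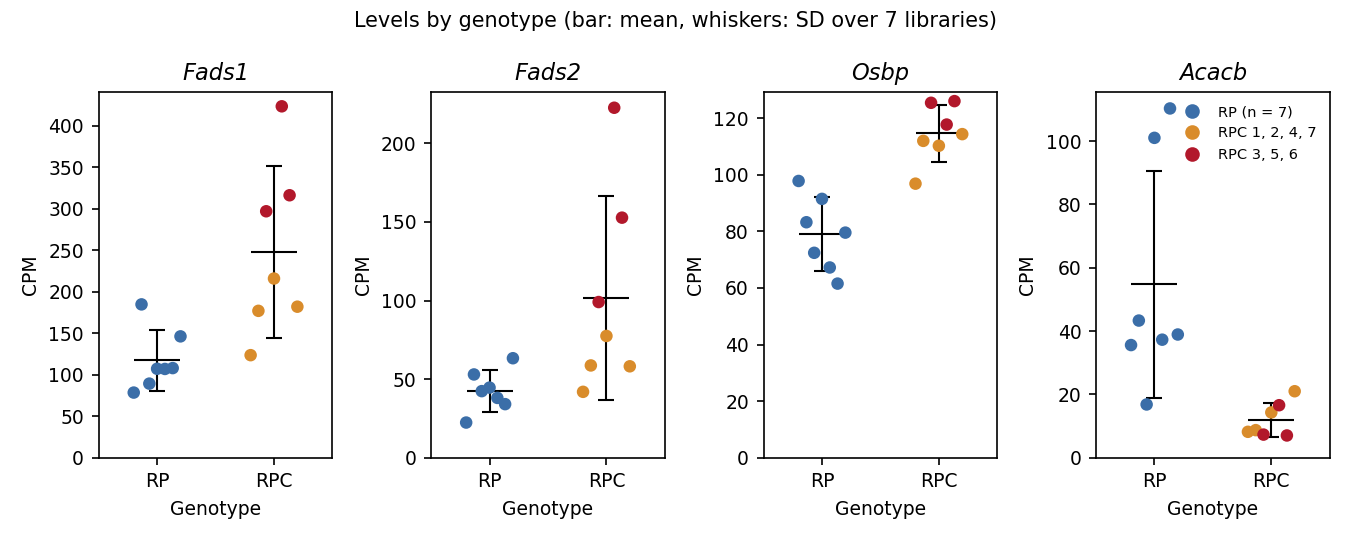
CPM of Fads1, Fads2, Osbp and Acacb by genotype (points, libraries; bar, mean; whiskers, SD; n = 7 each), with RPC 3, 5 and 6 in red. RPC 3, 5 and 6 are the highest points for Fads1, Fads2 and Osbp, and for Acacb they are mixed with the other RPC tumours.

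Of the processing genes, Scap, the escort that carries SREBPs to the Golgi, was at 226 ± 73.2 (RP) and 151 ± 22.6 CPM (RPC) (SD, n = 7 each; log2 fold change -0.59, SE 0.19, adjusted p = 0.101). Nr1h2, which encodes the oxysterol receptor LXR-beta, was at 104 ± 13.8 and 81.8 ± 11.6 CPM (SD, n = 7 each; -0.35, adjusted p = 0.1246). Tecr, the last enzyme of very long chain fatty acid elongation, was at 162 ± 57.0 and 322 ± 125 CPM (SD, n = 7 each; 0.995, SE 0.28, adjusted p = 0.0688). It passed without RP 3 (adjusted p = 0.0358) or RPC 7 (0.0441). Those fits called 898 and 763 of all tested genes. Acsl3, an acyl-CoA synthetase of lipid droplets, was at 148, 174 and 173 CPM in RPC 3, 5 and 6 and at 41.4 to 90.6 CPM in the others (0.84, adjusted p = 0.160). In RPC 3, 5 and 6, 3 of the 47 genes lay above all other tumours (Acsl3, Osbp and Elovl5) and 7 lay below (Nr1h2, Mlxipl, Soat1, Abcg1, Ch25h, Cpt1a and Cpt2), against 2.68% and 9.19% of all genes. These genes were picked by their values, so the names are a description. Ch25h was at 0 CPM in all 3. The 7 macrophage markers were also below the other 11 tumours there, and their part in these levels was not tested.

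Levels of different genes were compared per kilobase of the longest GENCODE transcript. In RP tumours Acly led at 73.2 CPM per kilobase, followed by Srebf1 at 62.6, Fdps at 59.3, Pmvk at 57.5, Sqle at 54.6 and Insig1 at 54.0. In RPC tumours Fdps led at 129 and Scd2 followed at 127 CPM per kilobase, then Acly at 87.4 and Fads1 at 71.6. That order rests on RPC 3, 5 and 6: over RPC 1, 2, 4 and 7, Scd1 was at 74.2 (with RPC 2 far above the others), Acly at 72.1, Fads1 at 50.5, Scd2 at 49.4 and Fdps at 47.4 CPM per kilobase. Hsd17b7, at 5.45 and 6.87 CPM per kilobase, was the lowest tested gene of the set in both genotypes.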

How the data were processed

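The deposited files hold raw read counts per gene symbol, 1 file per tumour, not normalized. Per the labels' protocols, RNA was isolated with TRIzol and polyadenylated RNA was made into libraries with a NEBNext Ultra kit. The submitters' processing notes name HTSeq 0.6.1, TopHat2 2.0.12, bcl2fastq 1.8.2 and the genome build mm9. Annotation, settings and strand use: not given in the sources used here. Reads from a gene and its antisense partner therefore cannot be told apart. HTSeq leaves out reads that map to several places, which lowers the counts of genes with near-identical copies.

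Rows that name no gene (15.1% to 20.5% no feature, 8.44% to 11.2% with several alignments, 0.883% to 1.09% ambiguous) were kept out of library sizes. Within each genotype no 2 libraries were repeats (chi-square per degree of freedom at least 59.5 over 42 pairs). Genes were kept with filterByExpr (minimum count 10, total 15), TMM-scaled and analysed by the edgeR 4.0.16 quasi-likelihood F test in R 4.3.3, RPC against RP, over all 14 libraries with no covariate, adjusted by Benjamini-Hochberg over 14804 genes and called at 0.05. SE is the log2 fold change divided by the root of F. CPM is over the counts of tested genes with TMM. Scores used log2 CPM with a prior count of 2. DESeq2 1.42.0, limma-voom 3.58.1, other scalings and filters, a block for tumour number, a term for the mean of macrophage, fibroblast, endothelial, T and NK, type 2 and club markers, and leaving out libraries were alternatives.

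The set, the lists and the alternatives were chosen with earlier results of these data known. The score without Scd1 was added after seeing its values. Genes named were all 33, the called related genes and the 3 of smallest p in each direction, the highest marker of a list where one was needed, and Crebbp, Rb1 and Trp53. Pdgfra, Kdr, Cdh5, Cldn5, Alb and the genes said to be named afterwards fall outside that rule. Chromosomes and promoters come from RefSeq (GRCm38.p6), with 14708 tested genes matched and promoters for 11628 of them. Lengths come from GENCODE M21. The counts rest on mm9, so expression carries no coordinates. On simulated counts for 14606 genes, edgeR found 25.3% of 99 genes changed 2-fold and 65.3% of 95 changed 4-fold in RPC against RP, with 6 of 93 calls false.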

Additional observations from a re-analysis of the deposited data

Results flagged for a closer look

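A single tumour lay far from the rest of its genotype in 4 of the 82 gene and genotype groups tested by Dixon's ratio (the gap to the nearest tumour over the whole range, above the 95% critical value for 7 tumours). Chance gives about 1 in 20. Dhcr7 was high in RP 3, at 49.9 CPM against 30.0 in the next tumour (ratio 0.621). Elovl6 was high in the same tumour, at 144 against 62.8 CPM (ratio 0.588). Ebp was low in RP 1, at 22.4 against 35.0 CPM (ratio 0.6). Scap was low in RPC 5, at 104 against 149 CPM (ratio 0.718). In RPC 3, 5 and 6 the levels of Dhcr7 were above RP 3, and Elovl6 in RP 3 lay between RPC 3 and RPC 5. RPC 5 combined the lowest Scap with the highest sterol score, 1.20.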

How the results depend on the processing

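With DESeq2 size factors, upper-quartile scaling or a filter of 1 CPM in 7 libraries, the counts of called genes and all 38 named genes kept their direction and call. The count over all genes, 327, was 1424 with DESeq2, 503 with limma-voom, 7 with the term for non-tumour markers, 11 without RPC 3, 5 and 6, and 51 (without RP 6) to 898 (without RP 3) over fits that left out a library. The count of sterol genes, 0, was 3 with DESeq2 and 0 to 2 over those fits. That of fatty acid genes, 1, was 4 with DESeq2, 0 with no filter, with the term and without RPC 3, 5 and 6, and 0 to 3 over those fits. That of related genes, 2, was 4 with DESeq2 (Acacb, Osbp, Scap and Tecr), 0 with the term and without RPC 3, 5 and 6, and 0 to 4 over those fits. Without filter Fads1 had an adjusted p of 0.0573.

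Tumour numbers are shared by the genotypes, and the labels do not say that they pair the tumours. Deviations of same-numbered tumours correlated between -0.0539 and 0.322, over 0.1 in 3 of 7. Of the RP tumours, 2 of 7 matched their own number best. Expression alone cannot settle whether the numbers mark pairs. With the number as a replicate block 74 genes were called, 0 of them sterol, fatty acid or related genes.

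Without RPC 3, 5 and 6, the tumours with the highest sterol scores, the sterol score difference turned from 0.43 to -0.11. The sterol minus fatty acid difference turned from 0.14 to -0.16 there. Leaving out 1 library gave 0.27 to 0.54 for the sterol score, 0.15 to 0.39 for the fatty acid score and 0.010 (without RPC 3) to 0.23 for their difference. Scd1, at 0.12, was -0.91 with limma-voom, -1.04 with the replicate block and -1.005 (without RPC 2) to 0.37 over leave-one-out fits. Sqle ran from -0.23 to 0.060 there, Insig1 from -0.39 to 0.057 and Sc5d from -0.15 to 0.033. Log2 fold changes that turned negative with the term were Idi1 -0.23, Fdft1 -0.19, Fdps -0.29, Dhcr7 -0.10, Srebf2 -0.15, Mvk -0.10, Nsdhl -0.17, Hsd17b7 -0.20, Acly -0.076 and Elovl6 -0.28. Without RPC 3, 5 and 6 these were -0.18, -0.22, -0.32, -0.065, -0.19, -0.092, -0.15, -0.17, -0.019 and -0.21, and Scd2 was -0.044. The cause was not tested. The term for non-tumour markers takes much of its range from RPC 3, 5 and 6. With 7 tumours a genotype, most 2-fold changes were missed on simulated counts.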
